A study of Oryza sativa with 6 samples.

Results

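The 4 genes described here act on plant height or panicle size in rice: *SD1* (*Os01g0883800*), *OsGA2ox6* (*Os04g0522500*), *OsCYP96B4* (*Os03g0140400*) and *SP1* (*Os11g0235200*). They were chosen by name, as the genes of plant stature and panicle size that the study discusses, and they are 4 of the 925 genes in the deposited table. That table lists only genes that the authors called as changed between mutant and wild-type leaves, so the 4 genes had to differ between the groups and their calls are not independent evidence. By their identifiers the genes lie on chromosomes 1, 4, 3 and 11. The RNA came from leaves at the booting stage of the *japonica* variety Zhonghua11 (WT, called ZH11 in the labels, 3 libraries) and of the *Dwarf and aberrant panicle 1* mutant in the same variety (*Dap1*, called Dap in the labels, 3 libraries). *Dap1* carries a T-DNA upstream of *OsWUS*, which encodes a homeodomain factor of meristems. It is 1 insertion line, no homozygous plants were obtained, and the zygosity of the plants used for RNA is not given in the sources used here. All plants were grown in the field. The mutant headed later, so genotype and sampling day or hour cannot be told apart.

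Gibberellins (GA) are diterpenoid hormones that promote stem elongation. GA20 oxidases carry out late steps of their synthesis, and GA2 oxidases inactivate bioactive forms and their precursors. Loss of the GA20 oxidase *SD1* shortens the culm and gave the semi-dwarf varieties of the Green Revolution, while a high level of a GA2 oxidase such as *OsGA2ox6* also gives short plants. *OsCYP96B4* encodes a cytochrome P450 monooxygenase whose mutants are dwarf. *SP1* encodes a transporter of the peptide transporter (PTR) family, and its loss shortens the panicle. The only sequences for these genes in the sources used here were the primers with which the study measured *SP1* in young panicles. They are shown to identify that transcript, and those panicle measurements were not analysed here.
SP1 forward primer: ttcaacgcggcctacttcag
SP1 reverse primer: cgatgatgatgggcacactt

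The 6 libraries held between 244181 and 666483 counts on the listed genes, with higher totals in *Dap1*, and their relative sizes, taken from the ratio of count to FPKM, lay between 0.86 and 1.11. FPKM is the authors' count of fragments per kilobase of transcript, scaled by the mapped fragments of the library. *OsWUS*, the gene next to the insertion, had 0 counts in each WT library and 77, 100 and 105 in the *Dap1* libraries. Of the 27 listed genes annotated with the response to heat, 26 were called higher in *Dap1* (96.3%, against 56.9% of all listed genes, median over the 27 on the log2 scale 4.49, or 4.24 with 7 genes of at most 3 counts per WT library set at their lower bound). The part of this difference in the values below was not tested. In leaf tissue, fewer cells of a type and less RNA per cell cannot be told apart. The leaf label itself could not be checked, since only changed genes have values: 3 listed genes matched the leaf marker terms in their descriptions, and of the 6 chosen markers of meristem and young panicle 0 were listed.

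The gibberellin synthesis gene and the gibberellin breakdown gene both rose in *Dap1* leaves. *SD1* had an FPKM of 4.78, 4.23 and 3.84 in WT replicates 1 to 3 and 18.9, 19.79 and 17.49 in *Dap1* replicates 1 to 3. The lowest *Dap1* library was 3.66 times the highest WT library, so the groups did not come near each other. Fitted with edgeR across all listed genes, *SD1* rose 4.32-fold (log2 fold change 2.11, standard error (SE) 0.11, quasi-likelihood adjusted p = 5.6e-15). *OsGA2ox6* had an FPKM of 2.11, 2.32 and 2.02 in WT and 7.57, 6.46 and 8.32 in *Dap1*. Here too the groups stood apart, with a factor of 2.78 between the nearest libraries. Its rise was 3.47-fold (log2 fold change 1.80, SE 0.15, edgeR adjusted p = 1.33e-10). DESeq2's size factors were computed from the counts of the listed genes, which were selected for changing, so they can absorb part of the change. Scaling by them lowers the listed genes by a median of 0.85 on the log2 scale. *OsGA2ox6* then stood at 0.94 and *SD1* at 1.26, so only *SD1* stayed beyond the threshold of 1.

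*OsCYP96B4* and *SP1* fell in *Dap1* leaves. *OsCYP96B4* had an FPKM of 6.22, 6.35 and 7.61 in WT and 2.05, 3.59 and 3.05 in *Dap1*. The lowest WT library was 1.73 times the highest *Dap1* library. The fall was 2.31-fold (log2 fold change -1.21, SE 0.15, edgeR adjusted p = 1.22e-07), so the threshold of 1 lay within 2 standard errors of the estimate. When edgeR tested directly for a change beyond that threshold, the adjusted p was 0.0442. The authors had selected the listed genes at this threshold on these libraries, and the adjustment covers only those genes. The p-values of this test, here and for *SP1* below, are therefore not independent evidence of a change beyond the threshold. *SP1* was the most weakly expressed of the 4 genes, with an FPKM of 1.04, 0.74 and 0.91 in WT and 0.29, 0.17 and 0.47 in *Dap1*. The lowest WT library was 1.57 times the highest *Dap1* library. It fell 2.91-fold (log2 fold change -1.54, SE 0.32, edgeR adjusted p = 1.08e-04), and the threshold again lay within 2 standard errors of the estimate. Tested beyond the threshold, edgeR gave an adjusted p of 0.0248. With DESeq2's size factors both falls were larger, at -2.06 for *OsCYP96B4* and -2.39 for *SP1*.

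**Figure D1:**
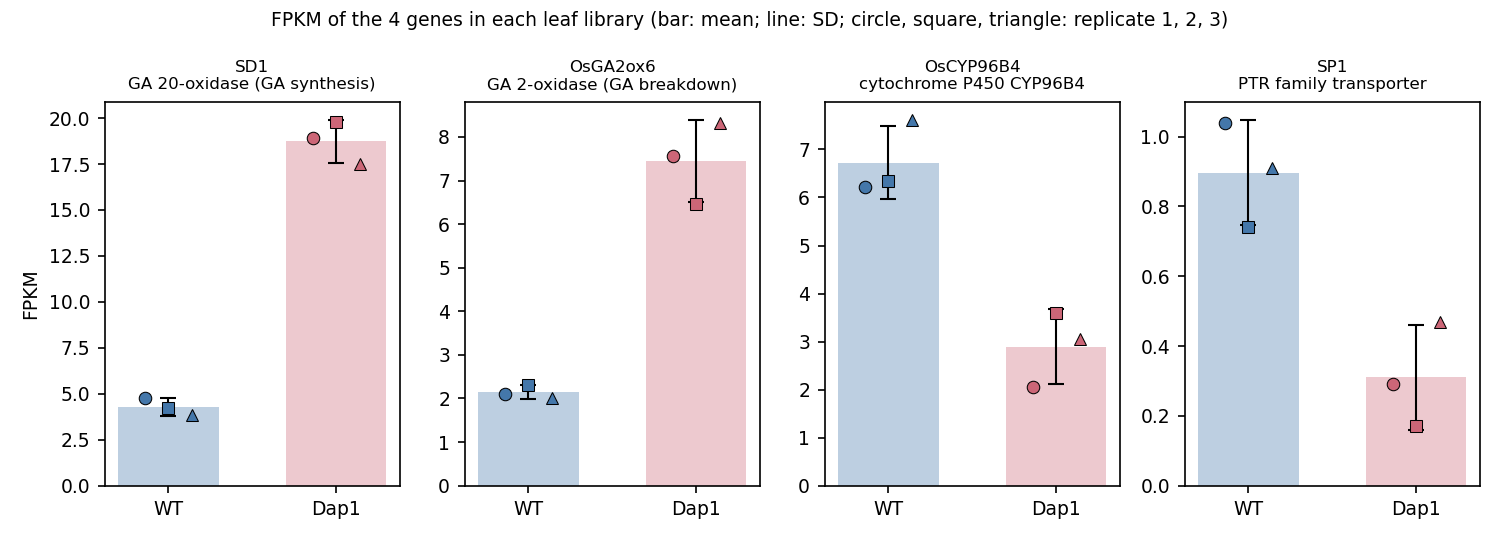
FPKM (vertical axis, from 0, with its own scale in each panel) of *SD1*, *OsGA2ox6*, *OsCYP96B4* and *SP1* in the 3 WT and 3 *Dap1* leaf libraries. Bars are group means, lines are SD, and the marker shape gives the replicate number. *SD1* (3.84 to 4.78 in WT, 17.49 to 19.79 in *Dap1*) and *OsGA2ox6* are higher and *OsCYP96B4* and *SP1* lower in every *Dap1* library.

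All 4 genes passed the thresholds (edgeR adjusted p below 0.05, with the log2 fold change beyond 1 in either direction), but so did 98.6% of the listed genes, and the FPKM of the groups did not overlap for 99.0% of them (57.0% of all higher and 42.1% lower in *Dap1*). For each of the 4 genes alone, the two-sided exact permutation test on FPKM gave p = 0.1, the smallest that 3 libraries against 3 allow. Among the 526 genes called higher, *SD1* ranked 217 and *OsGA2ox6* 274 by the size of the log2 fold change, whose median was 1.85. Among the 386 called lower, *SP1* ranked 138 and *OsCYP96B4* 265, and the median size there was 1.39. The 4 changes were therefore of middling size for this table.

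*SD1* and *OsGA2ox6* were compared directly, to see whether the synthesis or the breakdown gene moved more. The ratio of the 2 FPKM values within a library does not depend on how the libraries are scaled. *SD1* was 2.27, 1.82 and 1.90 times as abundant as *OsGA2ox6* in WT replicates 1 to 3, and 2.50, 3.06 and 2.10 times in the *Dap1* replicates. The groups overlapped, since WT replicate 1 lay above *Dap1* replicate 3. The log2 ratio averaged 0.99 ± 0.17 in WT and 1.34 ± 0.27 in *Dap1* (mean ± SD, n = 3 each), a difference of 0.34. The 9 differences between a *Dap1* and a WT library ran from -0.11 to 0.75 (two-sided exact permutation test, p = 0.2, and 0.24 after adjustment over the 6 pairs of genes). A larger rise of *SD1* than of *OsGA2ox6* was therefore not shown. Equal rises were not shown either, because this permutation test cannot give a p below 0.1 with 3 libraries per group. The range up to 0.75 describes single libraries and is no interval for the difference between the groups.

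The second listed GA20 oxidase, *GA20OX1* (*Os03g0856700*), rose with *SD1*. It was expressed at an FPKM of 0.69, 0.31 and 0.62 in WT and 1.95, 1.57 and 1.91 in *Dap1* (log2 fold change 1.71, SE 0.28, edgeR adjusted p = 6.53e-06). Its mean FPKM was 0.54 in WT, against 4.28 for *SD1*, so *SD1* supplied most of the listed GA20 oxidase transcript. With both synthesis genes summed, an alternative chosen after the values were seen, the difference in log2 ratio to *OsGA2ox6* was 0.31 (two-sided exact permutation test, p = 0.2).

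Between the rising genes and *OsCYP96B4* the ratios turned over. In WT, *OsCYP96B4* exceeded *SD1* in every library, and the ratio of *SD1* to *OsCYP96B4* was 0.77, 0.67 and 0.50. In *Dap1* the same ratio was 9.22, 5.51 and 5.73. *OsGA2ox6* stood at 0.34, 0.37 and 0.27 of *OsCYP96B4* in WT and at 3.69, 1.80 and 2.73 times its level in *Dap1*. The groups did not overlap for the 4 pairs that set a rising against a falling gene, with differences in log2 ratio between 3.03 and 3.77 (two-sided exact permutation test, p = 0.1 and 0.15 after adjustment over the 6 pairs). The choice of genes that moved in opposite directions fixes the sign of these differences. *OsCYP96B4* and *SP1* fell by amounts that were not told apart: the difference in their log2 ratio was 0.39, and the library differences ran from -0.40 to 1.82 (two-sided exact permutation test, p = 0.8).

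**Figure D2:**
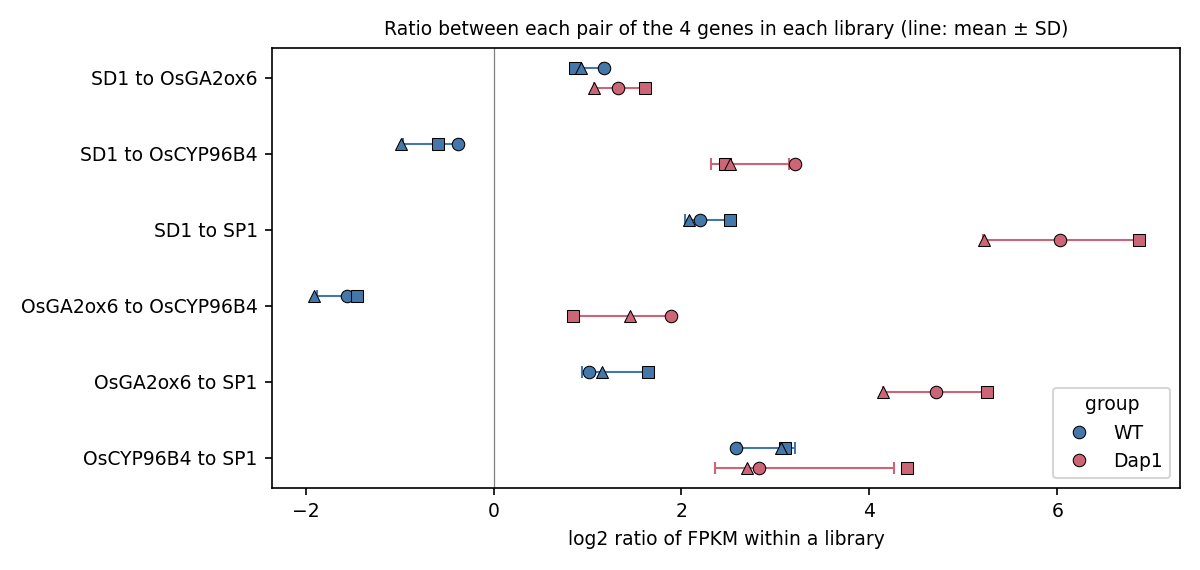
Log2 ratio of FPKM within each library (horizontal axis) for the 6 pairs of the 4 genes, with WT and *Dap1* libraries as separate points and lines for the mean ± SD of each group. The groups overlap for *SD1* to *OsGA2ox6* (WT mean 0.99, *Dap1* mean 1.34) and for *OsCYP96B4* to *SP1*, and are apart for the other 4 pairs.

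The order of the 4 levels differed between the groups. On the FPKM scale, which is per length, the order in WT was *OsCYP96B4* (6.73 ± 0.77), *SD1* (4.28 ± 0.47), *OsGA2ox6* (2.15 ± 0.15) and *SP1* (0.90 ± 0.15) (mean ± SD, n = 3). In *Dap1* it was *SD1* (18.7 ± 1.16), *OsGA2ox6* (7.45 ± 0.94), *OsCYP96B4* (2.90 ± 0.78) and *SP1* (0.31 ± 0.15) (mean ± SD, n = 3). Each order held in 3 of 3 libraries, and no 2 neighbours in either order overlapped between libraries. *SP1* was last in both groups. Among all listed genes, 80.0% had a lower mean FPKM than *OsCYP96B4* in WT and 58.8% in *Dap1*, while for *SD1* the share moved from 73.8% to 84.9%.

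Relative to their means, the replicates of the falling genes were less even in *Dap1* than in WT. The coefficient of variation of FPKM was 11.4% in WT and 27.0% in *Dap1* for *OsCYP96B4*, and 16.8% and 48.7% for *SP1*. *SD1* went the other way, with 11% in WT and 6.19% in *Dap1*, and *OsGA2ox6* had 7.16% and 12.6%. Over the 431 listed genes averaging 50 counts or more, the median was 9.63% in WT and 6.73% in *Dap1*. *SP1* averaged 28.5 counts and was not among them, so its values are not comparable with these medians. In *Dap1*, *OsCYP96B4* was lowest in replicate 1, with 69 counts against 131 and 114. On the FPKM scale the SD of *OsCYP96B4* was nearly the same in both groups, 0.768 in WT and 0.781 in *Dap1*, and that of *SP1* was 0.150 in WT and 0.151 in *Dap1*, while their means were lower in *Dap1*.
*SP1* rested on few fragments. The *Dap1* libraries had 13, 8 and 23 counts, whose exact 95% Poisson intervals were 6.92 to 22.2, 3.45 to 15.8 and 14.6 to 34.5. The WT libraries had 54, 30 and 43 counts, and the interval of the lowest, 20.2 to 42.8, overlapped that of the highest *Dap1* library. These intervals cover counting error only. Without *Dap1* replicate 3 the log2 fold change of *SP1* was -1.99, and without *Dap1* replicate 2 it was -1.24. With limma on log2(FPKM + 1), a scale that understates changes of weakly expressed genes, *SP1* had a value of -0.54 and lost its call.

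Genes annotated with gibberellin, or with the pathway of diterpenoid biosynthesis, were examined around *SD1* and *OsGA2ox6*. The table held 6 of them, of which 4 were called higher (66.7%) and 2 lower (33.3%) in *Dap1*, where 56.9% of all listed genes were called higher and 41.7% lower. The median log2 fold change was 1.61 over the 6 genes, but 0.26 over the 4 genes other than *SD1* and *OsGA2ox6*, against 1.15 over all listed genes. No gene lay near that 0.26, which falls between rises and falls: the 4 genes stood at 1.71, 1.52, -1.01 and -1.24. Besides both GA20 oxidases and *OsGA2ox6*, *Os03g0607200*, a gibberellin regulated protein gene, rose with a log2 fold change of 1.52 (SE 0.29). The genes that fell were *OsKS6*, a terpene synthase gene of the diterpenoid pathway (log2 fold change -1.24, SE 0.15), and *Os06g0264500* (-1.01, SE 0.25). *Os06g0264500* is annotated both with gibberellic acid homeostasis and as a transporter of the family of *SP1*. It lost its call without WT replicate 1 (-0.86) and without *Dap1* replicate 1 (-0.84), which left 1 gene called lower. With DESeq2's size factors *SD1* alone of these 4 risen genes was still called, and the other 3 stood between 0.67 and 0.94. Steps of gibberellin metabolism outside these genes were not analysed here.

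*OsCYP96B4* was compared with the other listed cytochrome P450 genes. Of 18 such genes 7 were called higher (38.9%, against 56.9% of all listed genes) and 11 lower (61.1%, against 41.7%). The median log2 fold change was -1.20 with *OsCYP96B4* (-1.21) included, and -1.19 over the others. Of those averaging 50 counts or more, the largest rises were those of *OsABA8OX2* (log2 fold change 1.28), which encodes an abscisic acid hydroxylase, and *OsCPD1* (1.1), of brassinosteroid synthesis. *OsCPD1* was no longer called without WT replicate 3 (0.95) or *Dap1* replicate 3 (0.86). The largest falls were those of *Os02g0504000* (-2.33) and *Os07g0635300* (-1.50). *Os10g0165300* had 0 counts in each WT library and was at least 4.08-fold higher in *Dap1*, against a floor of 3 counts per library. Under TMM scaling 3 cytochrome P450 genes were called higher, as many as under DESeq2 scaling, while 11 were called lower in both.

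*SP1* was compared with 11 listed genes of peptide or nitrate transport, itself included, of which 2 were called higher (18.2%, against 56.9% of all listed genes) and 9 lower (81.8%, against 41.7%). The median log2 fold change was -1.30, against 1.15 over all listed genes. Of the 8 genes that carry the peptide:proton symporter term, 7 were called lower and 1 higher. *Os01g0871500* fell furthest (log2 fold change -1.80, SE 0.14), from an FPKM of 6.81, 6.66 and 6.77 in WT to 1.86, 2.09 and 1.87 in *Dap1*. *SP1* followed it, and after *SP1* came *OsNRT1.5A* (-1.42, SE 0.12), whose annotation is nitrate transport. The largest rise was that of *OsCBSCLC7* (2.36, SE 0.17), described as a chloride channel protein and not as a peptide transporter. *Os03g0138700* was at -1.01, next to the threshold, and lost its call in the fit with a replicate block (-1.0). It also lost the call without WT replicate 2 (-0.90), WT replicate 3 (-0.89) or *Dap1* replicate 2 (-0.96). The call was lost as well in both limma fits and when edgeR tested for a change beyond the threshold.

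**Figure D3:**
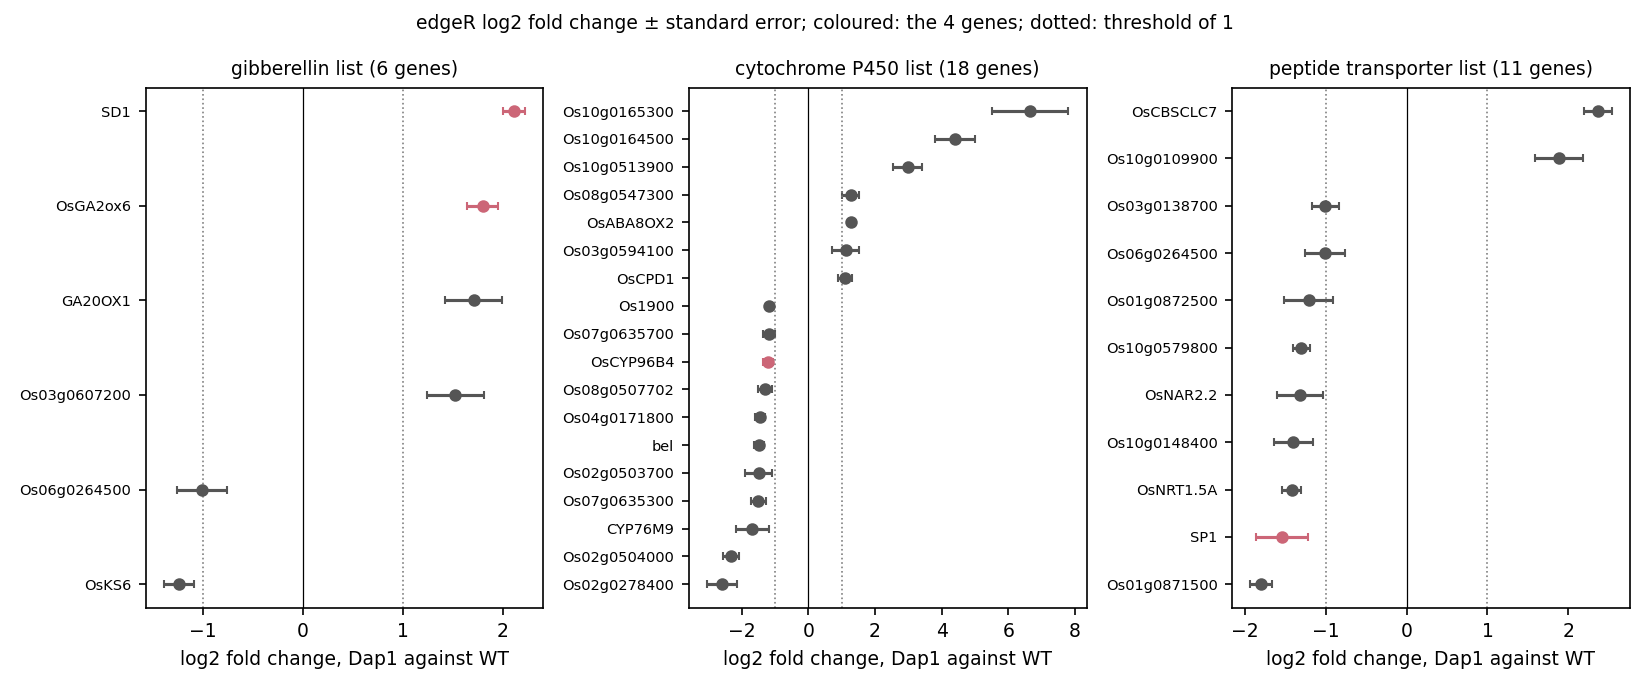
edgeR log2 fold change of *Dap1* against WT (horizontal axis, points with standard errors) for the listed gibberellin, cytochrome P450 and peptide or nitrate transport genes, with the 4 described genes coloured and the threshold of 1 dotted. *SD1* and *OsGA2ox6* head the first list, and 9 of the 11 transport genes lie below 0 with *SP1* among them. *Os10g0165300* had 0 counts in each WT library and *Os10g0164500* at most 3, so their fitted values are no bounds.

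*SD1* and *OsGA2ox6* are both dioxygenases, enzymes that use molecular oxygen and often 2-oxoglutarate. Of the 9 listed genes with that annotation, 4 were called higher (44.4%, against 56.9% of all listed genes) and 5 lower (55.6%, against 41.7%). The 3 gibberellin oxidases were 3 of the 4 that rose. *OsNCED1*, which encodes an enzyme of abscisic acid synthesis, had the largest fall among those averaging 50 counts or more, from an FPKM of 71.75, 71.44 and 71.57 in WT to 21.01, 24.68 and 21.47 in *Dap1* (log2 fold change -1.68, SE 0.047). *ACO1*, an ethylene synthesis gene, fell by 1.39 on the log2 scale (SE 0.17). In the main fit *SD1* and *OsGA2ox6*, the gibberellin pair, both rose. Of the 2 abscisic acid genes named here, the synthesis gene *OsNCED1* was lower and the hydroxylase gene *OsABA8OX2* higher. With DESeq2's size factors *OsGA2ox6* (0.94) and *OsABA8OX2* (0.42) were no longer called.
Of the 4 GRAS genes, a family that includes the DELLA repressors of gibberellin signalling, 1 was called higher (25%, against 56.9% of all listed genes), *OsGRAS23* (log2 fold change 1.39, SE 0.15), and 2 lower (50%, against 41.7%). The fourth, *OsHAM4*, had a value just inside the threshold (-1.0) and was not called. All 3 genes annotated with brassinosteroid were called higher, as were 56.9% of all listed genes: *OsCPD1*, *OsABA8OX2* and *Os07g0491800* (1.71, SE 0.27), but *OsABA8OX2* and *OsCPD1* lost the call under TMM scaling.

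The genes whose profile over the 6 libraries was nearest to each of the 4 were found by the root mean square difference of centred log2(FPKM + 0.1), among 428 other genes averaging 50 counts or more. *SD1* was nearest to *OsUBC17*, a ubiquitin carrier gene (difference 0.073), followed by *Os02g0612900*, a temperature stress-induced lipocalin gene (0.082), and *OsAGP27* (0.083). *OsGA2ox6* was nearest to the tonoplast aquaporin genes *OsTIP2* (0.11) and *OsTIP1* (0.11) and to *OsCPn60alpha1* (0.11), which encodes a plastid chaperonin. *OsCYP96B4* was nearest to the aldehyde dehydrogenase gene *Os12g0178000* (0.12), which had an FPKM of 3.41, 3.48 and 4.27 in WT and 1.37, 2.23 and 1.60 in *Dap1*, with the same *Dap1* library lowest. *ART3* (0.15), a reconstructed transcript described as TAR1-like, and the cytochrome P450 gene *Os08g0507702* (0.19) came next. The nearest genes to *SP1* were *OsCAD8B* (0.23), *Os10g0344500* (0.23) and *OsABCG27* (0.24). With log2(FPKM + 1) the 3 nearest genes shared 1, 0, 2 and 0 with these for *SD1*, *OsGA2ox6*, *OsCYP96B4* and *SP1*. On that scale *Os05g0586400* was nearest to *SP1* (0.096) and *ART3* to *OsCYP96B4* (0.096). The points share libraries, and most of each profile is the difference between the groups.

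The directions of the 4 genes were the same in each of the 14 alternative fits, while the sizes moved. *SD1* ranged from 1.26 to 2.21, *OsGA2ox6* from 0.94 to 1.89, *OsCYP96B4* from -2.06 to -1.0 and *SP1* from -2.39 to -0.54. *SD1* and *OsCYP96B4* were called in 14 of the 14 fits, and *OsGA2ox6* and *SP1* in 13. The same fits called between 394 and 915 of the 925 listed genes, all of which the authors had already called.

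**Figure D4:**
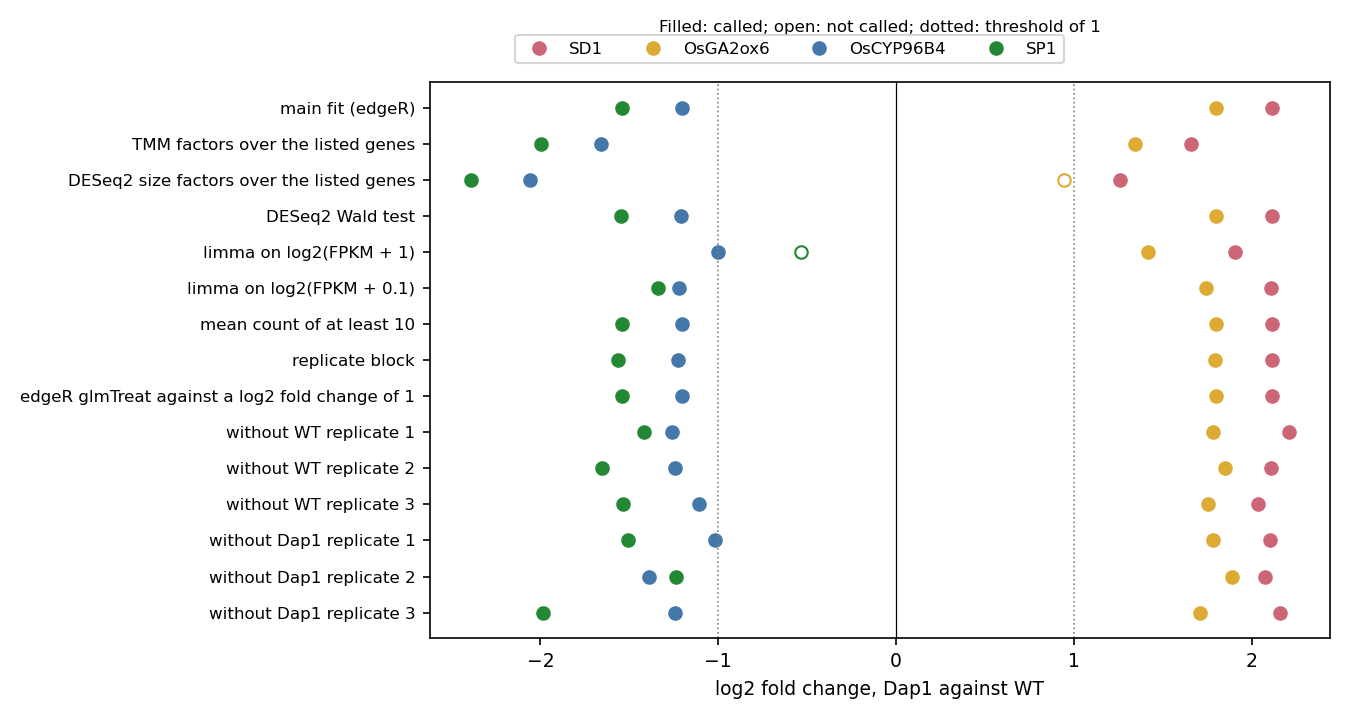
Log2 fold change of *Dap1* against WT (horizontal axis) for the 4 genes in the main edgeR fit and in 14 alternatives, with filled points where the gene was called and open points where it was not. The open points are *OsGA2ox6* with DESeq2's size factors (0.94) and *SP1* with limma on log2(FPKM + 1) (-0.54).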

How the data were processed

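Leaf RNA of 3 *Dap1* and 3 WT libraries was analysed. The authors used Fastp to filter reads, Bowtie 2 against rRNA, HISAT 2 for mapping to Nipponbare, and Stringtie and RSEM for transcripts and levels. Versions, annotation release and strand setting are not given in the sources used here. The deposited table holds raw counts per gene. The deposited FPKM values are those counts divided by transcript length and mapped fragments. Columns of the authors' comparison (log2 fold change, mean FPKM, p-value, FDR) were not used.

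Each library size was the median, over the 258 genes that reached an FPKM of 2 throughout, of the count divided by the FPKM and by that gene's mean quotient. All 925 genes were tested with edgeR 4.0.16 in R 4.3.3 without a filter, with Benjamini-Hochberg adjustment. limma 3.58.1, DESeq2 1.42.0, TMM factors, a filter at a mean count of 10, a replicate block, glmTreat and each library left out were alternatives. Python 3.11.15 and scipy 1.17.1 were used for permutation tests. Only the main edgeR fit was tested on simulated counts, in which most genes were left unchanged, unlike the listed genes. The alternative fits were not tested in this way. A fold called a bound is against a group with at most 3 counts in every library, and was computed against 3 counts per library.

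The replicates are described as biological, and no 2 libraries held identical counts. No identifier matched the RefSeq gene table (0 of 925), and the table's symbol matched for 1 of the 4 genes, so no coordinates are given. Gene lists were made by text match on the table's annotation. The genes and lists were chosen with earlier results of these data known. Genes named from the lists were each gibberellin gene and, in other lists, up to 2 rises and 2 falls with a mean count of at least 50. Any further gene was named with its values in view. For each of the 4 genes, 3 similar genes were named.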

Additional observations from a re-analysis of the deposited data

How the results depend on the processing

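Total library depth is unknown, because only called genes are listed. Scaling over the listed genes lowers all of them, by a median of 0.45 (TMM) and 0.85 (DESeq2's size factors) on the log2 scale, and left 342 and 251 genes called higher in place of 526. Limma on log2(FPKM + 1) called 394 genes, 276 higher and 118 lower, in place of 912, and glmTreat called 232 lower in place of 386. *OsGA2ox6* lost its call with DESeq2's size factors (0.94) and *SP1* with limma on log2(FPKM + 1) (-0.54). The gibberellin list had 1 gene called higher with DESeq2's size factors and 1 lower with limma on log2(FPKM + 0.1), in place of 4 and 2. The cytochrome P450 list had 3 called higher with TMM and 3 with DESeq2's size factors, in place of 7. The nearest genes shared with log2(FPKM + 1) were 1 of 3 for *SD1*, 0 for *OsGA2ox6* and 0 for *SP1*.

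With each library left out, 858 to 882 genes were called, 502 to 515 higher and 356 to 379 lower. *SD1* ranged from 2.03 to 2.21, *OsGA2ox6* from 1.71 to 1.89, *OsCYP96B4* from -1.39 to -1.02 and *SP1* from -1.99 to -1.24. The gibberellin list kept 4 higher with 1 to 2 lower, the cytochrome P450 list 5 to 7 higher, and the transport list 8 to 9 lower. The log2 difference of *SD1* to *OsGA2ox6* ranged from 0.20 to 0.48.

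The labels do not say whether libraries with the same number share more than that number. Over 431 listed genes, the deviations of same-numbered libraries had correlations of -0.0067, -0.016 and -0.028. These values cannot show that such libraries had no batch in common. The replicate block called 912 genes, 525 higher and 387 lower, gave 2.11, 1.79, -1.23 and -1.56 for *SD1*, *OsGA2ox6*, *OsCYP96B4* and *SP1*, and took 1 gene from the transport list (8 lower). The paired difference of *SD1* to *OsGA2ox6* was 0.34 (two-sided exact sign-flip test, p = 0.25, the smallest that 3 pairs allow). Adjustment over all genes the authors tested was not run, because it needs the authors' p-values.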

Other observations

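Other listed genes of shoot and panicle form were named after their values were seen. *Gn1a* (*Os01g0197700*), a cytokinin oxidase gene whose loss raises the number of grains per panicle, was barely detected in WT leaves, with 4, 6 and 3 counts, and had 38, 37 and 34 counts in *Dap1*. Its FPKM was 0.09, 0.17 and 0.07 in WT and 1, 0.89 and 0.8 in *Dap1*, and its rise (log2 fold change 3.0, SE 0.39, edgeR adjusted p = 2.18e-07) was larger than that of any of the 4 genes of the report. *Os1900* (*Os02g0221900*), a cytochrome P450 gene related to *MORE AXILLARY GROWTH 1* of Arabidopsis, which acts in strigolactone synthesis, went from an FPKM of 12.36, 11.04 and 11.57 in WT to 5.16, 5.36 and 5 in *Dap1*. Its fall (log2 fold change -1.18, SE 0.093, edgeR adjusted p = 2.63e-11) was nearly that of *OsCYP96B4*, with replicates that were more even. Like all listed genes, both had been called by the authors on these libraries.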
